A study of Mus musculus with 8 samples.

Results

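The genes described here are 10 cytokines that macrophages can make: Tnf, Il6, Il12b, Il23a, Il10, Tgfb1, Osm, Lif, Csf1 and Il15. They were found on the array by the accession of each non-control probe, and 9 of the 10 were matched, by 11 probes, among 21154 genes named on the array. Csf1 had 3 probes and the other matched genes had 1 each. No probe accession matched Il12b, the p40 subunit that IL-12 and IL-23 share, so it was not analysed here. Of the 9, 7 passed the filter on dim probes and were tested: Tnf, Il6, Il10, Tgfb1, Osm, Csf1 and Il15. Il23a and Lif did not pass it and are given by their values, with no test.

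Gene expression was measured on 8 one-colour Cy3 arrays of adherent mouse peritoneal macrophages, obtained by lavage and kept in culture overnight, with 2 arrays in each of 4 groups. Fra-1 knockout cells carried the genotype Fra-1lox/lox MxCre-/+, and Fra-1 control cells came from wild-type Fra-1lox/lox mice. Fra-2 knockout cells carried Fra-2lox/lox LysMCre-/+, and Fra-2 control cells came from wild-type Fra-2lox/lox mice. All mice were 8 weeks old, male or female and on a 129/C57Bl6 background, with littermates as controls, so every group carried floxed alleles and no group was free of them. MxCre is driven by an interferon-inducible promoter that is not restricted to macrophages, whereas LysMCre is active in myeloid cells. How MxCre was induced is not given in the sources used here. The labels name a Cre for the knockout groups and none for the control groups. Loss of the factor, the Cre itself and any induction of MxCre therefore cannot be told apart. The 4 arrays of the Fra-1 line, and none of the Fra-2 line, are labelled as elicited with thioglycollate, a sterile irritant that draws monocytes into the peritoneum. Line, elicitation and any difference in preparation therefore cannot be told apart. The design text counts 2 mice for each knockout and 4 wild-type mice; no label ties an array to an animal, so the spread between arrays may be partly technical.

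Fra-1, encoded by Fosl1, and Fra-2, encoded by Fosl2, are Fos family members of AP-1, which bind as dimers with Jun proteins to the palindrome TGANTCA. TNF and IL-6 are early inflammatory cytokines of macrophages, IL-12 and IL-23 direct T cells, IL-10 and TGF-beta restrain inflammation, oncostatin M and LIF signal with IL-6 through gp130, CSF-1 keeps macrophages alive, and IL-15 supports lymphocytes. Many of these messages are short-lived, and several of the proteins are released by cleavage or held latent, so a message level does not give the amount of active protein.

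Levels below are normalized log2 signals, that is log2 of the background-subtracted intensity minus the array's own 75th percentile, so 0 stands for the 75th percentile of the array's non-control probes. Such levels are compared only for the same probe. Means are given ± SD over n = 2 arrays. Differences are given with the standard error (SE) from limma's moderated model over all 8 arrays, and a gene is called when its p, adjusted by Benjamini-Hochberg over all 22910 tested features, is under 0.05. A probe is above background on an array when at least a share of 0.5 of its spots is so by the scanner's own flag. A fold given with the words at least is a bound in this main processing only. Alternative corrections or floors gave smaller differences.

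The genes that were targeted were looked at first. Fosl1 had -4.78 and -4.18 in Fra-1 knockout cells, against -2.73 and -1.97 in Fra-1 control cells. Both knockout arrays were below background and the groups did not overlap, at least 3.91-fold lower in Fra-1 knockout cells, with an adjusted p of 0.364. The log2 difference of Fosl1 was -2.13, but -0.75 with normexp and -1.23 with a common floor. Fosl2 had 6.43 and 7.14 on its brighter probe in Fra-2 knockout cells, against 5.51 and 5.57 in Fra-2 control cells, and so was not lower in the arrays labelled Fra-2 knockout (log2 difference 1.24, SE 0.24, adjusted p = 0.207). Its dimmer probe ran the other way, with -3.96 and -3.82 in Fra-2 knockout cells, against -2.59 and -2.64 in Fra-2 control cells. Where either probe lies relative to the deleted part is not known here, so neither checks the Fra-2 labels, and each direction below rests on the arrays labelled Fra-2 knockout.

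The arrays correlated by 0.910 to 0.922 between lines over all tested features and by 0.977 to 0.988 between the groups of 1 line. The percentage of probes above background was lowest, 46.6%, on Fra-2 knockout array 1 and 50.6% to 56.7% on the others. All 6 macrophage markers, Adgre1, Cd68, Itgam, Fcgr1, Mertk and Lyz2, were above background on every array, and their summed level was 9.77 to 9.89 in Fra-1 knockout, 9.83 to 10.2 in Fra-1 control, 9.60 to 9.81 in Fra-2 knockout and 9.91 to 10.1 in Fra-2 control cells. Between the control groups 4 of the 6 were called, 1 higher and 3 lower in Fra-1 control cells. Of all features 36.0% were called there, 18.1% higher and 17.9% lower. Cd68 had 9.18 and 8.96 in Fra-1 control cells, against 7.21 and 7.06 in Fra-2 control cells. Adgre1 ran the other way, with 6.50 and 5.89 against 7.87 and 7.74. Like sums thus do not mean like levels of each marker. In samples of many cells, fewer cells of a type and less RNA per cell cannot be told apart.

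Promoter windows are shown for the 3 genes of the list in which AP-1 or NF-kappaB letters were found, because Fra-1 and Fra-2 are AP-1 subunits and NF-kappaB drives several of these cytokines. Windows are the 250 bases before the gene's start, from RefSeq on GRCm38.p6, and 6 of the 10 genes, namely Tnf, Il6, Il12b, Tgfb1, Lif and Csf1, had an entry. Il10, Il23a, Osm and Il15 had none. The motifs searched on both strands were the AP-1 palindrome TGANTCA, the CRE-type palindrome TGACGTCA and the NF-kappaB motif; matches could overlap, and in the windows shown none did. Of 32851 promoters, 6.75% held TGANTCA, 1.55% held TGACGTCA and 0.356% held the NF-kappaB motif. In the lines below, written 5′ to 3′ on the gene's strand, capitals mark a match. The Il6 window (chr5:30012864-30013113, plus strand) held TGAGTCA at 249 to 243 bases before the start and the NF-kappaB match GGGATTTTCC at 44 to 35 bases before it. The Lif window (chr11:4257318-4257567, plus strand) held TGACTCA at 228 to 222 bases before the start. The Csf1 window (chr3:107760470-107760719, minus strand) held GGAAAGTCCC, the NF-kappaB motif read on the opposite strand, at 154 to 145 bases before the start.
Il6: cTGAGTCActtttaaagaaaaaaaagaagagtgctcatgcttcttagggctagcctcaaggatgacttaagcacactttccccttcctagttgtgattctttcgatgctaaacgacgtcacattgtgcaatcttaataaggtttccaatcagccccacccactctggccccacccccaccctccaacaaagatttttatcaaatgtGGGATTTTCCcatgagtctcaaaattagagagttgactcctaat
Lif: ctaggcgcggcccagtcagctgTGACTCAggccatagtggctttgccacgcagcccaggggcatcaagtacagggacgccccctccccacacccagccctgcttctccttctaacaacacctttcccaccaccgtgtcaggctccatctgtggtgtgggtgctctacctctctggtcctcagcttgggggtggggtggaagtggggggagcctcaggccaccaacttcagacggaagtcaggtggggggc
Csf1: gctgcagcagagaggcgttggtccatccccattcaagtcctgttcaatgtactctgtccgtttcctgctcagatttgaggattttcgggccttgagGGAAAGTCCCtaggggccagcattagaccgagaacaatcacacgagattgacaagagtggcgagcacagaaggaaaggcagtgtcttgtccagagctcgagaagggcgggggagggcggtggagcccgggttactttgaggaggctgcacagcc
The Tnf, Tgfb1 and Il12b windows held none of the 3 motifs. A match is a description of the letters, and no match says only that those letters are not in this window.

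Fra-1 knockout cells were set against their floxed controls, and no cytokine gene was called. Of the 7 tested genes 0 were called, against 0.0131% of all features, and 2 had an unadjusted p under 0.05 in limma, Il6 and Csf1, against 8.84% of all features. In 5 of the 7 the 2 groups did not overlap, against 46.4% of all features: Tnf and Il15 were higher (27.6% of all features) and Il6, Il10 and Csf1 lower (18.7%) in Fra-1 knockout cells. The median log2 difference of the 7 was -0.07, and that of all features was 0.03.

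Il6, the acute-phase cytokine, had the largest difference of the 7. It had -4.55 and -5.69 in Fra-1 knockout cells, both below background, against -3.64 and -2.61 in Fra-1 control cells, both above background. Il6 was thus at the edge of detection in the whole Fra-1 line, and both knockout arrays lay below both control arrays. The means were -5.12 ± 0.81 in Fra-1 knockout cells and -3.12 ± 0.73 in Fra-1 control cells. Because the knockout arrays were dim, the fold is stated as at least 2.54-fold lower in Fra-1 knockout cells in the main processing. The dim arrays were set to the higher of their own signal and the lowest signal that was above background on that array. The log2 difference was -2.0 (SE 0.75, 95% interval -3.85 to -0.15, adjusted p = 0.531), and it was -0.40 with normexp background correction and -0.49 with a common floor.

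Tnf ran the other way. It had 1.18 and 0.96 in Fra-1 knockout cells, against 0.42 and 0.57 in Fra-1 control cells. Both knockout arrays lay above both controls, and all arrays were above background. For Tnf this was a log2 difference of 0.57 (SE 0.37, 95% interval -0.34 to 1.49, adjusted p = 0.691).

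Csf1, the growth factor that maintains macrophages, had 1.31 and 1.26 on its brightest probe in Fra-1 knockout cells, against 1.61 and 2.44 in Fra-1 control cells. Both knockout arrays lay below both controls, and the controls differed from each other by more than the nearer control differed from the knockouts. The log2 difference was -0.74 (SE 0.26, 95% interval -1.39 to -0.09, adjusted p = 0.510). The other 2 Csf1 probes had differences of -0.80 (SE 0.35) and -0.91 (SE 0.44), again with no overlap, so all 3 probes lay lower in Fra-1 knockout cells.

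Among the remaining genes, Il10, the main deactivating cytokine of macrophages, had -5.34 and -5.59 in Fra-1 knockout cells, against -5.21 and -4.43 in Fra-1 control cells. Only the second control array was above background, so Il10 was not measurable on 3 of the 4 arrays of this line and its log2 difference of -0.65 (SE 0.50, adjusted p = 0.740) is between signals at background. Il15, which sustains NK cells and memory T cells, had -0.08 and -0.39 in Fra-1 knockout cells, against -0.62 and -0.50 in Fra-1 control cells (log2 difference 0.32, SE 0.18, adjusted p = 0.659). Tgfb1 had 2.86 and 3.03 in Fra-1 knockout cells, against 3.07 and 2.96 in Fra-1 control cells, and the groups overlapped (-0.07, 95% interval -0.60 to 0.46). Osm, which activates gp130 together with its own receptor, had -1.69 and -1.62 in Fra-1 knockout cells, against -1.15 and -2.02 in Fra-1 control cells, and the groups overlapped too (-0.07, 95% interval -0.87 to 0.74).

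The 2 dim genes added little. Lif had -6.43 and -5.67 in Fra-1 knockout cells, against -4.97 and -4.98 in Fra-1 control cells, all below background. Il23a, the p19 subunit of IL-23, had -6.46 and -6.41 in Fra-1 knockout cells, against -6.15 and -6.90 in Fra-1 control cells, all below background.

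Slide was a possible batch, since 1 slide held 5 arrays and the other held 3. On slide 1, which held 1 Fra-1 knockout and both Fra-1 control arrays, the difference was -1.43 for Il6, 0.68 for Tnf, -0.71 for Csf1, -0.52 for Il10, 0.48 for Il15, -0.16 for Tgfb1 and -0.10 for Osm. Slide 2 held a Fra-1 knockout array and no Fra-1 control array. With slide as a block in the model the values were -2.25 for Il6, 0.32 for Tnf and -0.76 for Csf1.

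Summed levels of other cell types' markers also lay apart in this comparison. The summed level of 5 fibroblast markers was 5.34 to 5.98 in Fra-1 knockout and 6.76 to 7.29 in Fra-1 control cells, and that of 5 mesothelial markers was 2.16 to 2.73 in Fra-1 knockout and 3.27 to 3.82 in Fra-1 control cells. None of the 10 was called, and all were above background in both groups. All 5 fibroblast markers, and Upk1b, Lrrn4 and Wt1 of the mesothelial ones, lay lower without overlap. Msln and Upk3b overlapped. The summed level of 5 mast cell markers was 0.31 to 0.56 in Fra-1 knockout and 1.08 to 1.33 in Fra-1 control cells. Of these, Cpa3, Cma1 and Tpsb2 lay lower without overlap, and Mcpt4 and Kit overlapped. The sums of 3 further cell types' lists lay higher without overlap, beside the higher Tnf and Il15 signals. The summed level of 4 neutrophil markers was 3.75 to 4.34 in Fra-1 knockout and 3.53 to 3.66 in Fra-1 control cells, that of 3 dendritic cell markers -1.23 to -1.10 in Fra-1 knockout and -2.11 to -1.43 in Fra-1 control cells, and that of 4 T and NK cell markers 2.79 to 2.88 in Fra-1 knockout and 2.71 to 2.75 in Fra-1 control cells. Within these 3 lists, S100a8, Nkg7, Flt3 and Cd209a lay higher without overlap, and the other tested genes overlapped. None of the markers of these lists was called either. The part of all these cells in the cytokine differences was not tested.

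**Figure D1:**
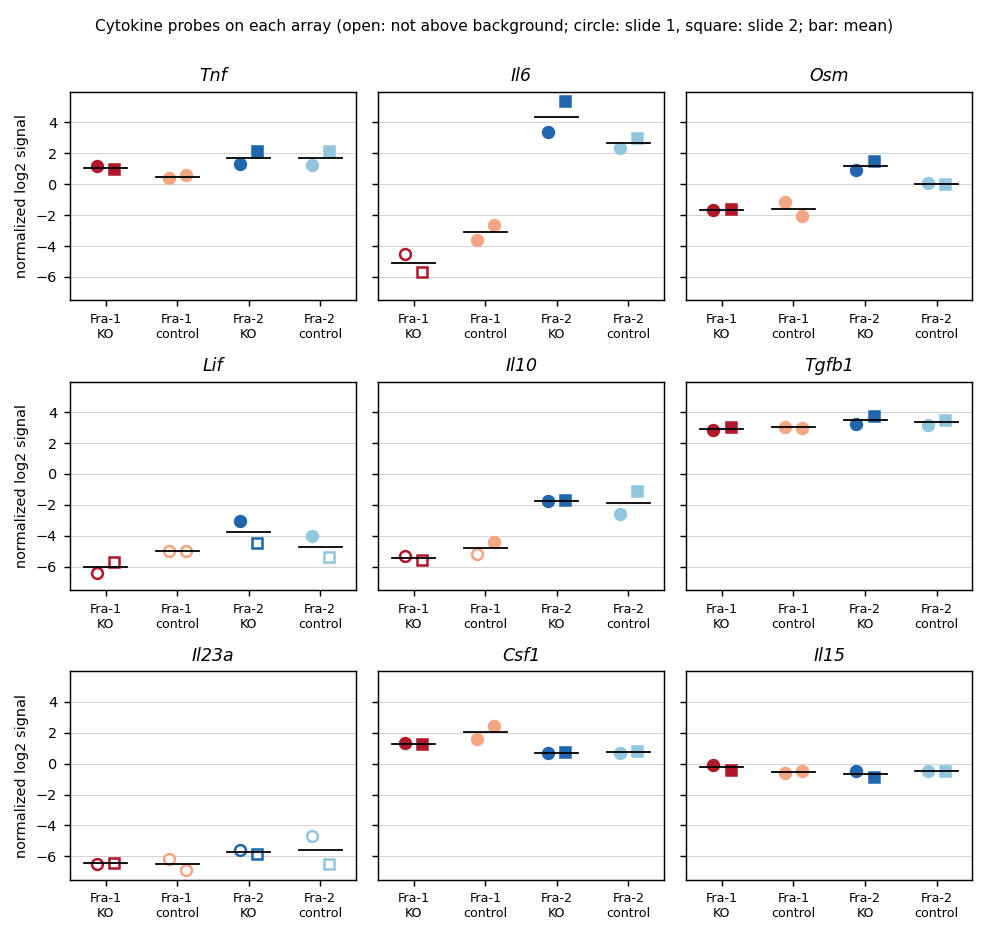
Normalized log2 signal of the 9 cytokine genes on the array (y axis, log2, 0 is the array's 75th percentile) in the 4 groups (x axis); each point is 1 array, circles are slide 1 and squares slide 2, open points are not above background, and bars are means of 2 arrays. Il6 spans the widest range, with both Fra-1 knockout arrays open at the bottom (-4.55 and -5.69) and Fra-2 knockout array 2 at the top (5.37).

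The arrays labelled Fra-2 knockout were set against their own floxed controls in the same way. Again no cytokine gene was called: 0 of 7, against 0.00873% of all features, and only Osm had an unadjusted p under 0.05 in limma, 1 of 7 against 8.81% of all features. In 2 of the 7, Il6 and Osm, the groups did not overlap, against 35.1% of all features, and both were higher in Fra-2 knockout cells (15.0% of all features), while 0 were lower without overlap (20.1%). The median log2 difference of the 7 was 0.13, and that of all features was -0.03.

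Osm had 0.91 and 1.52 in Fra-2 knockout cells, against 0.10 and 0.00 in Fra-2 control cells. Both knockout arrays lay above both controls, which nearly coincided. The log2 difference was 1.16 (SE 0.33, 95% interval 0.36 to 1.97), a 2.24-fold higher signal in Fra-2 knockout cells, with an adjusted p of 0.366. It was 0.81 on slide 1 and 1.52 on slide 2, each of which held 1 Fra-2 knockout and 1 Fra-2 control array.

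Il6 had 3.40 and 5.37 in Fra-2 knockout cells, against 2.33 and 3.01 in Fra-2 control cells. All 4 arrays were above background and both knockout arrays lay above both controls, but the knockout arrays differed by more from each other than the lower of them differed from the controls. The means were 4.38 ± 1.39 in Fra-2 knockout cells and 2.67 ± 0.48 in Fra-2 control cells. This gave a log2 difference of 1.71 (SE 0.75, 95% interval -0.14 to 3.56, adjusted p = 0.600), with 1.07 on slide 1 and 2.36 on slide 2.

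The other 5 tested genes overlapped between Fra-2 knockout and Fra-2 control cells. Tnf had 1.31 and 2.12 in Fra-2 knockout cells, against 1.27 and 2.17 in Fra-2 control cells, so that arrays of 1 slide lay close and the slides lay apart. The log2 difference of 0.00 (SE 0.37, 95% interval -0.92 to 0.91) was 0.04 on slide 1 and -0.05 on slide 2. Il10 had -1.75 and -1.70 in Fra-2 knockout cells, between the -2.60 and -1.11 of Fra-2 control cells (0.13, SE 0.50, 95% interval -1.10 to 1.36). Its difference was 0.85 on slide 1 and -0.59 on slide 2, so no direction can be read. Tgfb1 had 3.25 and 3.78 in Fra-2 knockout cells, against 3.17 and 3.51 in Fra-2 control cells (0.18, 95% interval -0.35 to 0.70). Csf1 had 0.71 and 0.73 in Fra-2 knockout cells, against 0.67 and 0.84 in Fra-2 control cells (-0.04, 95% interval -0.69 to 0.61). The knockout arrays of Csf1 lay between its control arrays. Il15 had -0.47 and -0.88 in Fra-2 knockout cells, against -0.49 and -0.47 in Fra-2 control cells (-0.19, 95% interval -0.65 to 0.26). With 2 arrays a group, true differences as large as either end of such an interval are not excluded.

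Beside the higher Il6 and Osm signals, the summed level of 4 neutrophil markers was 4.75 to 4.95 in Fra-2 knockout and 3.70 to 4.32 in Fra-2 control cells. Among them only S100a9 lay higher without overlap, with 3.09 and 0.23 against -2.40 and -4.14, and S100a8, Camp and Ltf overlapped. The summed level of 4 T and NK cell markers was 2.99 to 3.14 in Fra-2 knockout and 2.82 to 2.85 in Fra-2 control cells. Of these, Nkg7 lay higher and Cd3e lower without overlap. That of 5 mesothelial markers was -0.63 to -0.53 in Fra-2 knockout and -0.87 to -0.67 in Fra-2 control cells. Of these, 2 in the knockout and 3 in the control group were below background on both arrays. The macrophage sum, given above, lay lower without overlap. The part of these cells was not tested. Fibroblast markers overlapped, at 1.44 to 1.64 in Fra-2 knockout and 0.45 to 1.68 in Fra-2 control cells. B cell markers overlapped too, at 5.65 to 6.16 and 5.25 to 6.32.

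Lif and Il23a were dim in this line as well. Lif had -3.02 and -4.45 in Fra-2 knockout cells, against -4.04 and -5.36 in Fra-2 control cells, and only the first array of each group was above background. Il23a had -5.61 and -5.86 in Fra-2 knockout cells, against -4.66 and -6.51 in Fra-2 control cells, with no array above background.

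The 2 control groups differ by line, and with it by elicitation. Of the 7 genes, 5 were called, against 36.0% of all features, 5 had an unadjusted p under 0.05 in limma, against 46.7%, and in all 7 the groups did not overlap, against 71.8%. Without overlap, 6 were lower, against 37.3% of all features, and 1 was higher, against 34.5%. Il6, Il10, Osm and Tnf were called lower (4 of 7, against 17.9% of all features) and Csf1 higher (1 of 7, against 18.1%) in Fra-1 control than in Fra-2 control cells. The median log2 difference of the 7 was -1.22, and that of all features was -0.03.

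Il6 had -3.64 and -2.61 in Fra-1 control cells, against 2.33 and 3.01 in Fra-2 control cells. The groups stood further apart than for any other of the 7, 55.5-fold lower in Fra-1 control cells (log2 difference -5.79, SE 0.75, adjusted p = 0.00261). On slide 1, which held both Fra-1 controls and 1 Fra-2 control, the difference was -5.46. Over the alternatives it ranged between -6.31 and -4.53 with an adjusted p of at most 0.0203, except that it was not tested where a probe had to be above background on all 8 arrays.

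Il10 had -5.21 and -4.43 in Fra-1 control cells, against -2.60 and -1.11 in Fra-2 control cells. All 4 arrays of the Fra-2 line, and 1 of the 4 of the Fra-1 line, were above background, so Il10 entered the test through the Fra-2 line, where it is high. It was 7.80-fold lower in Fra-1 control cells, a fold for which 1 of the 2 Fra-1 control arrays was not above background (log2 difference -2.96, SE 0.50, adjusted p = 0.00656), with -2.22 on slide 1. The Il10 difference was -1.30 with normexp background correction (adjusted p = 0.00710) and -1.72 with a common floor (adjusted p = 0.0479). Osm had -1.15 and -2.02 in Fra-1 control cells, against 0.10 and 0.00 in Fra-2 control cells. It was 3.11-fold lower in Fra-1 control cells (-1.64, SE 0.33, adjusted p = 0.0119), with -1.69 on slide 1.

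Tnf differed less than these. It had 0.42 and 0.57 in Fra-1 control cells, against 1.27 and 2.17 in Fra-2 control cells, the 2 Fra-2 controls being further from each other than the nearer of them was from the Fra-1 line. This was a log2 difference of -1.22 (SE 0.37, adjusted p = 0.0477). With slide as a block it was -0.97 and the adjusted p rose to 0.0801, on slide 1 it was -0.77, and without Fra-2 control 2 it was -0.77 with an adjusted p of 0.182.

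Csf1 alone among the 7 was higher in the Fra-1 line. It had 1.61 and 2.44 in Fra-1 control cells, against 0.67 and 0.84 in Fra-2 control cells. The log2 difference was 1.27 (SE 0.26, adjusted p = 0.0138), 2.41-fold higher in Fra-1 control cells, with 1.35 on slide 1. A second Csf1 probe was called too (1.21, SE 0.35, adjusted p = 0.0410), while the third had an adjusted p of 0.0607 (1.34, SE 0.44).

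Tgfb1 and Il15 were not called. Tgfb1 had 3.07 and 2.96 in Fra-1 control cells, against 3.17 and 3.51 in Fra-2 control cells (-0.32, SE 0.22, 95% interval -0.85 to 0.20, adjusted p = 0.287). Il15 had -0.62 and -0.50 in Fra-1 control cells, against -0.49 and -0.47 in Fra-2 control cells (-0.08, SE 0.18, 95% interval -0.53 to 0.37, adjusted p = 0.766). Both genes were well above background in every group, and the interval of each ended at less than 1 log2 unit.

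**Figure D2:**
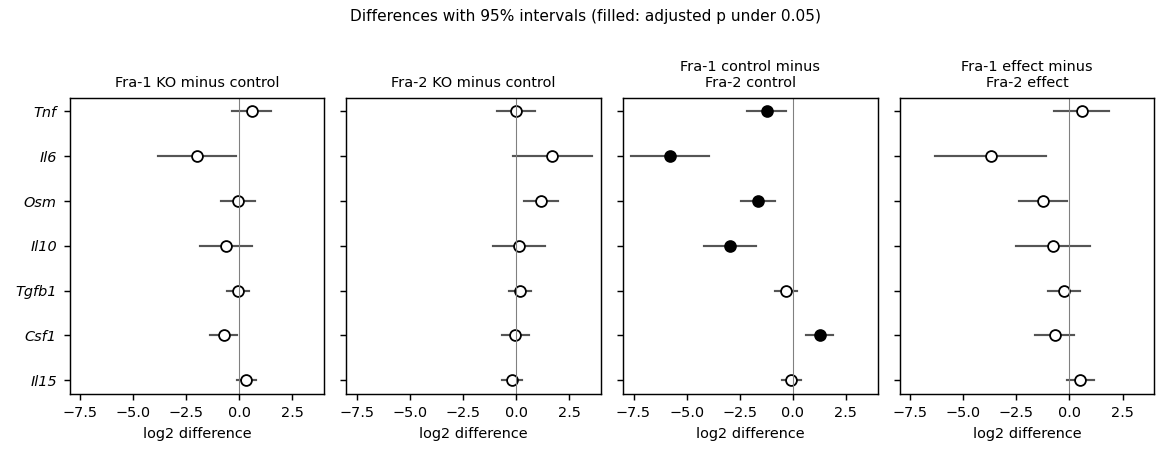
Log2 differences (x axis) of the 7 tested cytokine genes (y axis) in the 4 comparisons, with 95% intervals as lines; filled points have an adjusted p under 0.05. Filled points appear only between the control groups, where Il6 lies at -5.79 and Csf1 at 1.27.

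Markers of other cells and of macrophage subsets differed with the line, and they stand beside the differences above. The shares of all features called in this comparison were 36.0%, with 18.1% higher and 17.9% lower in Fra-1 control cells. The summed level of 4 B cell markers was 0.46 to 1.72 in Fra-1 control and 5.25 to 6.32 in Fra-2 control cells. All 4 were called lower in Fra-1 control cells, with Cd79a below background on every array of the Fra-1 line. That of 5 mast cell markers was 1.08 to 1.33 in Fra-1 control and 5.37 to 6.97 in Fra-2 control cells, all 5 called lower. That of 4 large resident peritoneal macrophage markers was 3.51 to 3.59 in Fra-1 control and 6.05 to 6.32 in Fra-2 control cells, 3 of 4 called lower, with Timd4 below background on every array of the Fra-1 line. Fibroblast and mesothelial markers ran the other way. The summed level of 5 fibroblast markers was 6.76 to 7.29 in Fra-1 control and 0.45 to 1.68 in Fra-2 control cells, and that of 5 mesothelial markers was 3.27 to 3.82 in Fra-1 control and -0.87 to -0.67 in Fra-2 control cells. All 10 were called higher in Fra-1 control cells, with Pdgfra, Upk3b and Lrrn4 below background on every array of the Fra-2 line. Of 4 T and NK cell markers 3 were called lower and 1 higher in Fra-1 control cells, and their summed level was 2.71 to 2.75 in Fra-1 control and 2.82 to 2.85 in Fra-2 control cells. Of 3 dendritic cell markers 2 were called lower, with a summed level of -2.11 to -1.43 in Fra-1 control and -0.11 to 2.33 in Fra-2 control cells. Summed, 3 monocyte and small peritoneal macrophage markers had 6.05 to 7.02 in Fra-1 control and 4.18 to 5.01 in Fra-2 control cells. Of these 3, 1 was called higher and 1 lower in Fra-1 control cells. The part of all these cells in the line differences was not tested.

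The receptors, related ligands and downstream genes of the same pathways were described from 4 lists. In the line comparison 36.0% of all features were called, 18.1% higher and 17.9% lower in Fra-1 control cells, and each list is set beside these shares. Of 17 receptor genes 14 were called, 4 higher and 10 lower in Fra-1 control cells, with a median log2 difference of -1.05. Osmr, the oncostatin M receptor subunit, had 0.45 and 1.17 in Fra-1 control cells, against -4.91 and -3.52 in Fra-2 control cells, 1 of which was below background. It was the receptor with the largest difference (5.03, SE 0.54, adjusted p = 0.00131), and it ran opposite to its ligand Osm. Il15ra, which presents IL-15, had 4.96 and 4.51 in Fra-1 control cells, against 7.28 and 8.08 in Fra-2 control cells (-2.95, SE 0.54, adjusted p = 0.00881). Il2rb, the signalling chain shared by IL-2 and IL-15, had -3.90 and -3.36 in Fra-1 control cells, against -0.53 and 0.32 in Fra-2 control cells (-3.53, SE 0.43, adjusted p = 0.00202). Il2rg, the common gamma chain that completes this receptor, was called lower too (-1.40, SE 0.26, adjusted p = 0.00953); it was named after its values were seen. Il15 itself was not called. Il23r, which pairs with the IL-12 receptor chain, was above background on both arrays only in Fra-2 control cells. It thus entered the test only through the group where it is high. In the main processing it was at least 3.29-fold lower in Fra-1 control cells, where it was below background (limma, adjusted p = 0.0309). Its log2 difference of -3.55 was as small as -0.58 over the alternatives, and the call was lost in 8 of them.

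Of 15 related ligands and subunits, 14 were tested and 7 called, 2 higher and 5 lower, with a median of -1.04, against 36.0% of all features (18.1% higher, 17.9% lower). Tgfb3, a TGF-beta isoform, had 1.04 and 1.58 in Fra-1 control cells, against -2.79 and -3.09 in Fra-2 control cells. It was 19.0-fold higher in Fra-1 control cells (4.25, SE 0.33, adjusted p = 0.000485), whereas Tgfb1 was not called. Csf2, which encodes GM-CSF, had -6.65 and -6.52 in Fra-1 control cells, both below background, against -2.19 and -1.04 in Fra-2 control cells. Csf2 thus entered the test only through the Fra-2 line, where it is high, and was at least 10.2-fold lower in Fra-1 control cells (adjusted p = 0.00119). Its log2 difference was -1.63 with normexp (adjusted p = 0.00434) and -1.96 with a common floor, where the call was lost (adjusted p = 0.0510). The lymphotoxin genes, relatives of Tnf, were lower in Fra-1 control cells as well: Ltb by a log2 difference of -3.09 (SE 0.49, adjusted p = 0.00515), and Lta, below background there, at least 3.67-fold (adjusted p = 0.00114). Lta too entered the test only through the Fra-2 line, and its log2 difference was -0.71 with normexp (adjusted p = 0.00334) and -0.49 with a common floor (adjusted p = 0.0483).

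Of 15 genes for cytokine release, activation and mRNA decay, 14 were tested and 7 called, 1 higher and 6 lower, with a median of -0.34, against the same 36.0% of all features (18.1% higher, 17.9% lower). Ltbp1, a protein that tethers latent TGF-beta in the matrix, had -2.97 and -2.89 in Fra-1 control cells, against 3.52 and 3.28 in Fra-2 control cells. It was 80.5-fold lower in Fra-1 control cells (-6.33, SE 0.13, adjusted p = 5.21e-05). Thbs1, thrombospondin 1, which can activate latent TGF-beta, had 3.01 and 3.30 in Fra-1 control cells, against 8.24 and 8.26 in Fra-2 control cells (-5.09, SE 0.32, adjusted p = 0.000276). Ltbp3, a related latent TGF-beta binding protein, ran the other way, with 3.83 and 3.87 in Fra-1 control cells, against 2.13 and 1.79 in Fra-2 control cells (1.88, SE 0.23, adjusted p = 0.00210). Zfp36l1, a relative of the mRNA decay factor tristetraprolin, was 5.87-fold lower in Fra-1 control cells (-2.55, SE 0.13, adjusted p = 0.000167).

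Of 16 JAK-STAT and SMAD genes, 10 were called and all 10 were lower in Fra-1 control cells, with a median of -1.51, against 17.9% of all features called lower and 36.0% called at all. Socs3, the feedback inhibitor of gp130 signalling, had 2.22 and 2.59 in Fra-1 control cells, against 6.37 and 6.67 in Fra-2 control cells (-4.11, SE 0.27, adjusted p = 0.000315). Stat4, which IL-12 receptors activate, had -2.82 and -2.05 in Fra-1 control cells, against 1.51 and 1.15 in Fra-2 control cells (-3.77, SE 0.27, adjusted p = 0.000384). Cish, another inhibitor of cytokine signalling, had a log2 difference of -3.60 (SE 0.53, adjusted p = 0.00401), and Nfil3, a transcription factor induced by IL-10, one of -3.39 (SE 0.19, adjusted p = 0.000203). These 4 were named for the largest differences among the called genes of the list. Their lack of overlap between the control groups, shared by 71.8% of all features, adds nothing further.

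**Figure D3:**
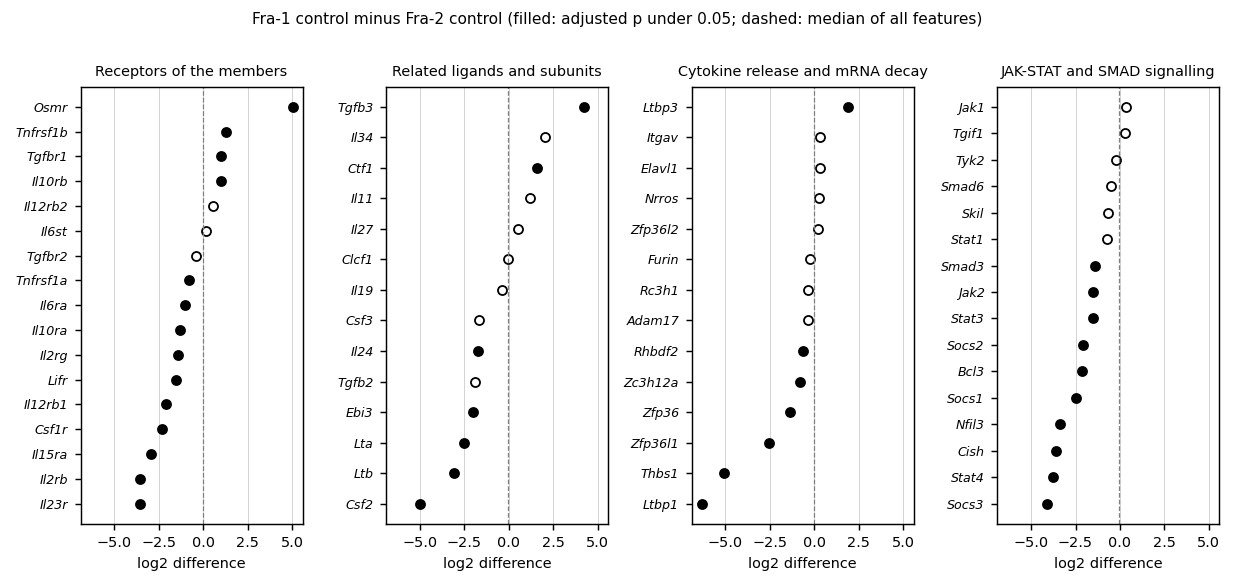
Log2 difference of Fra-1 control minus Fra-2 control (x axis) for each tested gene of the 4 pathway lists (y axis), filled where the adjusted p is under 0.05; the dashed line is the median of all features, -0.03. Osmr (5.03) and Tgfb3 (4.25) lie far right and Ltbp1 (-6.33) and Thbs1 (-5.09) far left.

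Together, 38 of the 61 tested genes of these 4 lists were called between the control groups, 7 higher and 31 lower in Fra-1 control cells, with a median log2 difference of -0.83, against 36.0% of all features (18.1% higher, 17.9% lower) and their median of -0.03. In the knockout comparisons none of the 61 was called, although Ltbp3 passed the threshold in Fra-2 knockout cells with a trended prior (adjusted p = 0.0466). In Fra-1 knockout against Fra-1 control cells 10 of the 61 had an unadjusted p under 0.05 in limma, against 8.84% of all features, and in Fra-2 knockout against Fra-2 control cells 6 of the 61 did, against 8.81%.

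Ltbp1 came closest to the threshold in Fra-1 knockout cells. It had -4.22 and -4.24 in Fra-1 knockout cells, against -2.97 and -2.89 in Fra-1 control cells. Both knockout arrays were below background. The gene was 2.45-fold lower there in the main processing, a fold that rests on those dim signals (adjusted p = 0.0885). Its log2 difference was -1.30, but -0.36 with normexp and -0.65 with a common floor. In the other line it had 4.33 and 4.20 in Fra-2 knockout cells, against 3.52 and 3.28 in Fra-2 control cells, so that both knockout arrays lay above both controls (log2 difference 0.86, SE 0.13, adjusted p = 0.137). Tgfb3 had 0.43 and -0.46 in Fra-1 knockout cells, against 1.04 and 1.58 in Fra-1 control cells (-1.32, SE 0.33, adjusted p = 0.363). Lifr, the receptor for LIF, had -1.49 and -1.90 in Fra-1 knockout cells, against -0.83 and -0.32 in Fra-1 control cells (-1.12, SE 0.25, adjusted p = 0.321). These 3 genes lay lower in both Fra-1 knockout arrays than in either control, as did 18.7% of all features. They were named for the smallest p of their lists, so this lack of overlap adds nothing further. Il12rb1, a chain of the receptors for IL-12 and IL-23, lay higher, with -3.01 and -1.11 in Fra-1 knockout cells, against -4.17 and -3.73 in Fra-1 control cells (1.89, SE 0.63, adjusted p = 0.479). Stat4 had -1.49 and -1.54 in Fra-1 knockout cells, against -2.82 and -2.05 in Fra-1 control cells (0.92, SE 0.27, adjusted p = 0.426). Ctf1, Zfp36l1 and Smad3, the other genes with the smallest p of their lists, had differences of -0.58, -0.43 and -0.46. That of Ctf1 was as small as -0.08 over the alternatives.

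In the Fra-2 line the smallest p belonged to Ltbp3. It had 0.12 and 0.68 in Fra-2 knockout cells, against 2.13 and 1.79 in Fra-2 control cells. Both knockout arrays lay well below both controls (log2 difference -1.56, SE 0.23, adjusted p = 0.128). Il15ra had 5.60 and 7.18 in Fra-2 knockout cells, against 7.28 and 8.08 in Fra-2 control cells (-1.29, SE 0.54, adjusted p = 0.578), and Il12rb2 had -3.95 and -3.59 in Fra-2 knockout cells, against -4.24 and -5.06 in Fra-2 control cells (0.87, SE 0.29, adjusted p = 0.468). The knockout arrays of Il15ra lay below, and those of Il12rb2 above, both of their controls. Without overlap, 20.1% of all features lay lower and 15.0% higher in Fra-2 knockout cells. These genes too were named for the smallest p of their lists. Il12rb2 was above background on only 1 of the 2 arrays in each group, and its difference was 0 with a common floor. Clcf1, Lta, Stat4 and Stat3 had differences of -0.67, -0.68, 0.39 and 0.25. The Lta difference was as small as -0.11 over the alternatives.

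Whether the 2 knockouts differed in effect was tested as the Fra-1 difference minus the Fra-2 difference. Of the 7 cytokine genes 0 were called, against 0.00436% of all features, and 2, Il6 and Osm, had an unadjusted p under 0.05 in limma, against 9.56% of all features. The median over the 7 was -0.70, and that over all features was 0.05. Il6 was lower in Fra-1 knockout cells and higher in Fra-2 knockout cells than in their controls, on each array against each control. Without overlap, 18.7% of all features were lower in Fra-1 knockout cells and 15.0% were higher in Fra-2 knockout cells. For Il6 the difference of the 2 effects was -3.71 (SE 1.07, 95% interval -6.32 to -1.10, adjusted p = 0.383), and it was -2.03 with normexp. For Osm it was -1.23 (SE 0.46, 95% interval -2.36 to -0.10, adjusted p = 0.498). For Csf1 it was -0.70 (SE 0.37, adjusted p = 0.606), for Il15 0.52 (SE 0.26, adjusted p = 0.583), for Tnf 0.58 (SE 0.53, adjusted p = 0.753), for Il10 -0.78 (SE 0.71, adjusted p = 0.752) and for Tgfb1 -0.25 (SE 0.31, adjusted p = 0.816). Each of these intervals reaches past 0 for the 5 genes other than Il6 and Osm. Of the 61 pathway genes 7 had an unadjusted p under 0.05 in limma and 0 were called. The smallest p of each list included Ltbp1 (-2.16), Ltbp3 (1.62), Lifr (-1.51), Il12rb1 (2.22), Tgfb3 (-1.46), Il19 (1.07), Smad6 (-0.79) and Smad3 (-0.33). The Il19 value was 0 with a common floor.

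**Figure D4:**
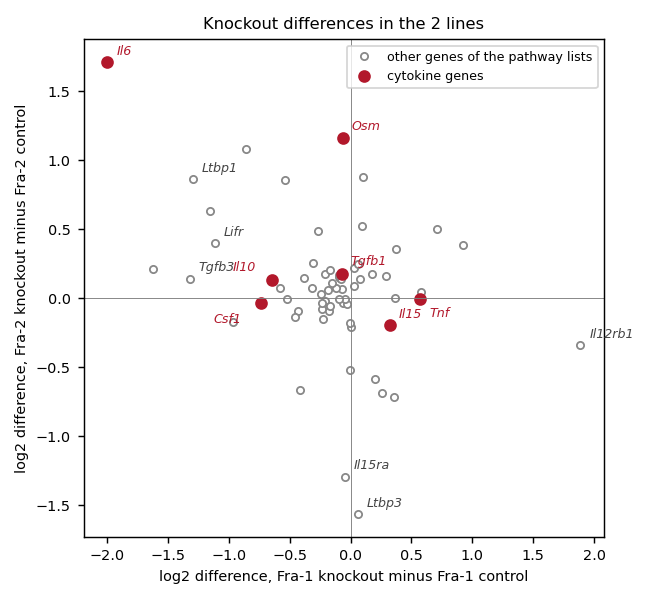
Log2 difference of Fra-1 knockout minus Fra-1 control (x axis) against that of Fra-2 knockout minus Fra-2 control (y axis) for the 7 cytokine genes (filled) and the 61 genes of the pathway lists (open). Il6 lies farthest to the upper left (-2.0 and 1.71), Osm lies on the vertical line (-0.07 and 1.16), and no point was called on either axis.

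Over the 4 groups, the order of the group means was the same for Il6, Il10, Osm and Tgfb1, with both Fra-2 groups above both Fra-1 groups. Within the lines, the arrays overlapped for Tgfb1 in both, for Osm in the Fra-1 line and for Il10 in the Fra-2 line. Il10 was mostly at background in the Fra-1 line. The lowest Fra-2 array stood above the highest Fra-1 array by 2.33 against -2.61 for Il6, by -2.60 against -4.43 for Il10 and by 3.17 against 3.07 for Tgfb1. For Osm the lowest Fra-2 array, at 0.00, also stood above the highest Fra-1 array, at -1.15. For Tnf only the order of the 2 lines was the same, and narrowly so. Its lowest Fra-2 array had 1.27 and its highest Fra-1 array, a knockout, 1.18. Its Fra-1 control mean, 0.50, lay below its Fra-1 knockout mean, 1.07, and both Fra-2 means were 1.72. Csf1 ran opposite, with 1.26 to 2.44 in the Fra-1 line and 0.67 to 0.84 in the Fra-2 line. Within each line, neighbouring groups did not differ past the threshold for any of these genes.

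For 4 of the genes, the 2 most alike of 14394 other named genes were found by Pearson's r over the 8 arrays. The arrays fall into the 2 lines, so these values rest largely on the difference between lines that all such pairs share, and they are given as a description. For Il6 they were C3, complement component 3 (r = 0.995), and Scarf1, a scavenger receptor (r = 0.993). C3 had 5.05 and 4.79 in Fra-1 knockout, 5.66 and 5.85 in Fra-1 control, 8.78 and 9.19 in Fra-2 knockout and 7.97 and 8.62 in Fra-2 control cells. Its groups thus stood in the same order as those of Il6, Fra-1 knockout lowest and Fra-2 knockout highest. For Il10 they were Hnrnpa1, an RNA-binding protein (0.994), and Arid5b (0.990). For Tnf they were Opn3 (0.983) and Ptpn9 (0.980), and for Tgfb1 Dmxl2 (0.987) and Bad, a pro-apoptotic BCL2 family protein (0.982).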

How the data were processed

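RNA of 8 mouse samples was hybridised to 8 Cy3 arrays. The scanner output deposited by the authors came from Feature Extraction 11.5.1.1, per the file headers. The column used, the processed signal, is a linear intensity from which the scanner software had taken off the background, per the file headers. A value table deposited by the authors holds log2 values centred on each probe's median, found by setting its differences between arrays against the scanner values (r and slope of 1); its column medians were -0.16 to 0.25, its direction is settled, and it served as an alternative. An aligner does not apply, and other steps are not given in the sources used here.

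Non-control spots without outlier flags were averaged per probe on the log2 scale and each array's 75th percentile was subtracted. Of 55681 probes, 28026 were named through accessions with a RefSeq table (GRCm38.p6; the array design names mm9) and 27655 were not. A probe was kept when it was above background on both arrays of at least 1 group; the brightest kept probe stood for a gene or, where unnamed, for an accession, and needed a value on every array, giving 22910 features, 62.8% named. limma 3.58.1 (R 4.3.3) was fitted to the 4 groups without covariates, with Python 3.11.15 for the rest; the code was tested on simulated data. The number of arrays limits the precision.

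Genes named besides the cytokines and Fosl1 and Fosl2 are, from each pathway list and comparison, up to 4 called genes with the largest difference or, where none was called, the 2 with the smallest p, plus the 2 most alike genes. The genes and lists were chosen with earlier results of these data known. Summed marker levels are log2 of summed linear signals. Alternatives were quantile normalization, normexp correction (offset 50, on median spot and background signals), that value table, 2 other filters on dim probes, the mean of a gene's probes, slide as a block, only the groups compared, a trended prior, a common floor and leaving out each array.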

Additional observations from a re-analysis of the deposited data

Results flagged for a closer look

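Il6 differed in opposite directions in the 2 lines, with every Fra-1 knockout array below both of its controls and every Fra-2 knockout array above both of its own. The difference of the 2 effects was -3.71 (limma, adjusted p = 0.383), which did not pass the threshold, and it was -2.03 with normexp and -2.20 with a common floor. Both Fra-1 knockout arrays were below background. Opposite directions without overlap are what Il6, Ltbp1 and Lifr were flagged for, so the pattern adds nothing further. Without overlap, 18.7% of all features were lower in Fra-1 knockout cells and 15.0% were higher in Fra-2 knockout cells. The share of features with both was not counted.

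Ltbp1, which tethers latent TGF-beta, showed the same opposition: the Fra-1 effect minus the Fra-2 effect was -2.16 (adjusted p = 0.123), and it was -1.21 with normexp and -1.51 with a common floor. Here too both Fra-1 knockout arrays were below background. For Lifr the value was -1.51 (adjusted p = 0.303). Neither passed the threshold.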

How the results depend on the processing

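In both knockout comparisons and in their difference, 0 of the 7 cytokine genes were called under every alternative run. Between the control groups 5 were called, but 3 when a probe had to be above background on all 8 arrays (Il6 and Il10 were then not tested) and 3 without Fra-2 control 1 (Osm -1.58, adjusted p = 0.0553; Csf1 1.18, adjusted p = 0.0659); leaving out 1 array gave 3 to 5. The call of Tnf was lost in 9 alternatives, with adjusted p of up to 0.182. Il23r lost its call in 8, with an adjusted p of up to 0.450 under the common floor. Csf2 lost its call under the common floor (adjusted p = 0.0510), and Il15ra lost it without Fra-1 control 2 (adjusted p = 0.0541).

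The counts over all features depended on the setting. For Fra-1 knockout the 3 calls became 21 with quantile normalization or a common floor, 1 with only the groups compared, and 0 with normexp, no filter, the filter on all arrays, slide as a block or a trended prior; leaving out 1 array gave 0 (without either Fra-2 control) to 18 (without either Fra-2 knockout). For Fra-2 knockout the 2 calls became 18 with quantile normalization, 10 with normexp, 4 with the filter on all arrays, 57 with a trended prior, 8 with a common floor, and 0 with no filter, slide as a block or only the groups compared; leaving out 1 array gave 0 (without either Fra-1 knockout) to 46 (without Fra-2 knockout 2). For the difference of effects the 1 call became 10 with quantile normalization and 0 with normexp, no filter, the filter on all arrays, slide as a block or a trended prior; leaving out 1 array gave 0 (without Fra-2 control 2 or Fra-1 control 2) to 27 (without Fra-2 knockout 2). The cause was not tested.

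Among differences that were not called, 15 values over the alternatives had the opposite sign, some of them for the same difference. With normexp the Fra-1 knockout difference was 0.059 for Il10 and 0.22 for Osm, and the Fra-2 knockout difference of Tnf was 0.0018. With the mean of probes, Fosl2 had -0.016 in Fra-2 knockout cells and 0.16 for the difference of effects. Leaving out 1 array gave Fra-1 knockout differences of -0.16 to 0.012 for Tgfb1 and -0.50 to 0.37 for Osm. It gave Fra-2 knockout differences of -0.46 to 0.45 for Tnf, -0.61 to 0.87 for Il10, -0.088 to 0.44 for Tgfb1, -0.12 to 0.049 for Csf1, -0.40 to 0.0078 for Il15 and -0.089 to 1.36 for Fosl1, and -0.51 to 0.016 for the Tgfb1 difference of effects. Without a filter the median of all features between the controls was -0.21, against -0.03.

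No paired analysis was possible because the labels give the groups no shared replicate numbers; slide as a block, given above, was run in its place. With 2 arrays a group, precision is limited, and more so for Il6, Il10 and Lif, which were not above background on part of the arrays, and for Il23a, which was above background on none.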
